A study of Mus musculus with 2 samples.

Results

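The 9 genes described here encode parts of the Notch signalling pathway: the receptors Notch1, Notch2 and Notch3, the ligands Dll1, Dll3, Jag1 and Jag2, and the glycosyltransferases Lfng and Mfng of the Fringe family. They were taken as the rows that carry these symbols, 9 of 28001 features in the matrix of septal explants and 9 of 32286 in that of the telencephalic vesicle of the embryonic mouse. The rows were picked by symbol and not by level, but the list was chosen with earlier results of these data known. Another 41 genes of the pathway, fixed as lists, are given by their counts.

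Notch receptors sit on a cell's surface and are activated by Delta or Jagged ligands on a neighbouring cell. ADAM proteases and gamma-secretase then release the intracellular domain, which joins the DNA-binding protein RBPJ and switches on genes such as Hes1 and Hes5. In the embryonic telencephalon, cells that start to differentiate carry ligand and keep their neighbours as progenitors, a process called lateral inhibition. Dll3 differs from Dll1 in that it does not activate receptors on neighbouring cells, and Fringe enzymes add sugars to the receptors that change their response to Delta and Jagged ligands.

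The study deposited 1 single-cell RNA library per tissue, both on the C57BL/6J background. The septal library (kit v2) pooled explants that encompass the septum from 8 E11.5 PGKCre;Rosa26YFP embryos and 4 E12.5 Dbx1Cre;Rosa26tdTomato embryos, with 2 litters at each stage, while its label gives the genotype as wild-type. PGKCre is broadly active, whereas Dbx1Cre is active in cells that express the homeobox gene Dbx1 and in their descendants. The vesicle library (kit v3.1) came from 3 wild-type embryos of 2 litters, labelled E12 and aged E11.5 to E12 per the methods, without a Cre allele. Embryos were pooled and no condition was repeated, so no test between samples was possible. Every interval below is a 95% interval that covers counting error only. Kit, stage, tissue and software differ together between the libraries, so their effects cannot be told apart and no level was compared between libraries.

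After filtering, 5384 of 5827 septal barcodes and 11758 of 14283 vesicle barcodes were kept, with a median of 12869 and 9059 unique molecular identifiers (UMIs, counted RNA molecules) per cell. The libraries shared 1 barcode sequence. A doublet caller marked 1.10% of septal and 5.72% of vesicle barcodes, below the 4.36% and 9.98% expected for their size, so doublets may remain. Single cells were gated by marker genes that include none of the 9 genes. The axis of differentiation was log2((N + 1)/(A + 1)), where N sums the UMIs of 11 neuronal genes and A sums those of 9 apical progenitor genes. Apical progenitors (APs) had an axis value under -1 and fewer than 5 UMIs per 10000 of the basal progenitor genes Eomes, Insm1, Btg2 and Gadd45g. Basal progenitors (BPs) had at least 10 such UMIs per 10000 and an axis value under 1, newborn neurons the same with an axis value of 1 or more, and neurons an axis value of 1 or more with fewer BP-gene UMIs. This gave 2953 APs, 377 BPs, 666 newborn neurons and 830 neurons in the septal explants, and 6393, 762, 635 and 1371 in the vesicle. Sox2 stood at 233 UMIs per 1000000 UMIs of the class (CPM) in septal APs and 30.2 in neurons. Stmn2 stood at 101 and 2765 in the same classes. Both genes belong to the lists behind the axis, so the gates fix these directions and the values are no check on them. The thresholds cut a continuum, since 354 of 2953 septal and 415 of 6393 vesicle APs lay within 0.5 axis units of their limit. Levels in CPM, here from UMIs summed over the cells of a class, are not corrected for gene length, and one gene's level is not compared with another's.

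All 9 genes are protein coding in the GENCODE annotation of mm10. Notch1 lies at chr2:26457903-26516663 on the minus strand, Notch2 at chr3:98013527-98150361 on the plus strand and Notch3 at chr17:32120820-32166852 on the minus strand. The ligand genes are at chr17:15367354-15376872 (Dll1), chr7:28293553-28302238 (Dll3), chr2:137081456-137116644 (Jag1) and chr12:112907819-112929776 (Jag2), all on the minus strand. Lfng lies at chr5:140607320-140615545 on the plus strand and Mfng at chr15:78755882-78773475 on the minus strand. Annotated transcripts run opposite to Notch1, Notch3 and Dll1. How the counting treated strand is not given in the sources used here, so reads of these overlapping transcripts are uncertain for those 3 genes. On the same strand, other annotated genes overlap Notch1, Notch2 and Jag2, and their part in those counts was not tested.

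Windows of 250 bases before each RefSeq start (GRCm38.p6) were found for 8 of the 9 genes, with 2 starts for Dll1 and none for Mfng. They were searched on both strands for the E-box CANNTG, the site class of proneural factors, and for TGGGAA, the core site of RBPJ. The upstream window of Dll1 and the window of Lfng, a ligand and an enzyme with opposite courses below, held the most matches and are printed with the matches in capitals. The Lfng window stops where its first exon starts.
Dll1, chr17:15376933-15377182, minus strand: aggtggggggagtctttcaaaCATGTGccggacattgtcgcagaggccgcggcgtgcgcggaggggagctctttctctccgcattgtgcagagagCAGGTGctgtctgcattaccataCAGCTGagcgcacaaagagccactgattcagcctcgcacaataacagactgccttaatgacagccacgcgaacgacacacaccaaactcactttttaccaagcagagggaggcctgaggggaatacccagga
Lfng, chr5:140607091-140607319, plus strand: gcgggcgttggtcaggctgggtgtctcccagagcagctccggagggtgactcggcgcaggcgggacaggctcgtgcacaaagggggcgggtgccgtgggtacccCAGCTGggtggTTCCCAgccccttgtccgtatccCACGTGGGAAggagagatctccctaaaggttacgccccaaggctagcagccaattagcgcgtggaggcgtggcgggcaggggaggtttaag
The printed Dll1 window holds 3 E-boxes and no TGGGAA, a number of E-boxes reached by 12.2% of 32851 windows. The window of the other Dll1 start, chr17:15375824-15376073, holds 1 E-box, and 66.2% of windows hold at least 1. The Lfng window holds 2 E-boxes, a number reached by 31.8% of windows, and 2 RBPJ cores, one of them read on the other strand as TTCCCA, and 2.77% of windows hold 2 or more such cores. An E-box and a core of Lfng overlap by 2 bases. The windows of Dll3 and Jag1 hold 2 and 1 E-boxes, which are common numbers by the same shares, and no match was found in the windows of Notch1, Notch2, Notch3 and Jag2. These matches describe letters, not binding.

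Dll1 rose at the step from AP to BP, as did Dll3, which is described next. In the septal explants, Dll1 stood at 18.9 CPM in APs (17.7 to 20.2, 897 UMIs), 423 in BPs (404 to 442), 196 in newborn neurons and 89.5 in neurons. In the telencephalic vesicle, the same classes held 26.5, 258, 128 and 60.2 CPM. Dll1 was thus 22.3-fold higher in BPs than in APs in the septal explants (20.6 to 24.2) and 9.74-fold higher in the vesicle (9.21 to 10.3). A Dll1 UMI was found in 91.8% of septal BPs and in 20.4% of septal APs. After thinning every cell to 8000 UMIs in the septal and 3500 in the vesicle library, these shares were 87.8% and 12.4%, and 56.1% and 6.70% in vesicle BPs and APs.

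By the gates, Dll3, the ligand that does not activate neighbours, was highest in newborn neurons. Septal Dll3 stood at 7.24 CPM in APs (6.50 to 8.05), 160.4 in BPs, 369 in newborn neurons (355 to 383) and 177 in neurons. The vesicle values were 4.13, 100.2, 194 and 70.9 CPM in the same order. BPs held 22.1 times the AP level in the septal explants (19.5 to 25.2) and 24.3 times in the vesicle (21.7 to 27.2). From gated BPs to gated newborn neurons Dll1 and Dll3 went opposite ways. The Dll3 level of newborn neurons was 2.30 times that of BPs in the septal explants (2.12 to 2.49) and 1.94 times in the vesicle (1.76 to 2.14), whereas that of Dll1 was 0.463 times (0.432 to 0.496) and 0.496 times (0.453 to 0.542).

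The order of the steps depended on how the classes were drawn. With clusters of whole transcriptomes named from the same markers in place of gates, the Dll3 ratio of newborn neurons over BPs was 1.19 in the septal explants and 0.823 in the vesicle, and that of Dll1 was 0.596 and 0.839. Both ligands were thus lower in newborn neurons of the vesicle clusters, and the opposite directions were lost there. The Dll1 ratio of BPs over APs was 10.5 and 6.45 with clusters. The axis of differentiation, which needs no classes, placed the Dll1 maximum in bin 8 of 10 in both libraries. Septal Dll3 was 317 CPM in bin 8 and 304 in bin 9, and vesicle Dll3 was 89.4 in bin 8 and 153 in bin 9.

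**Figure D1:**
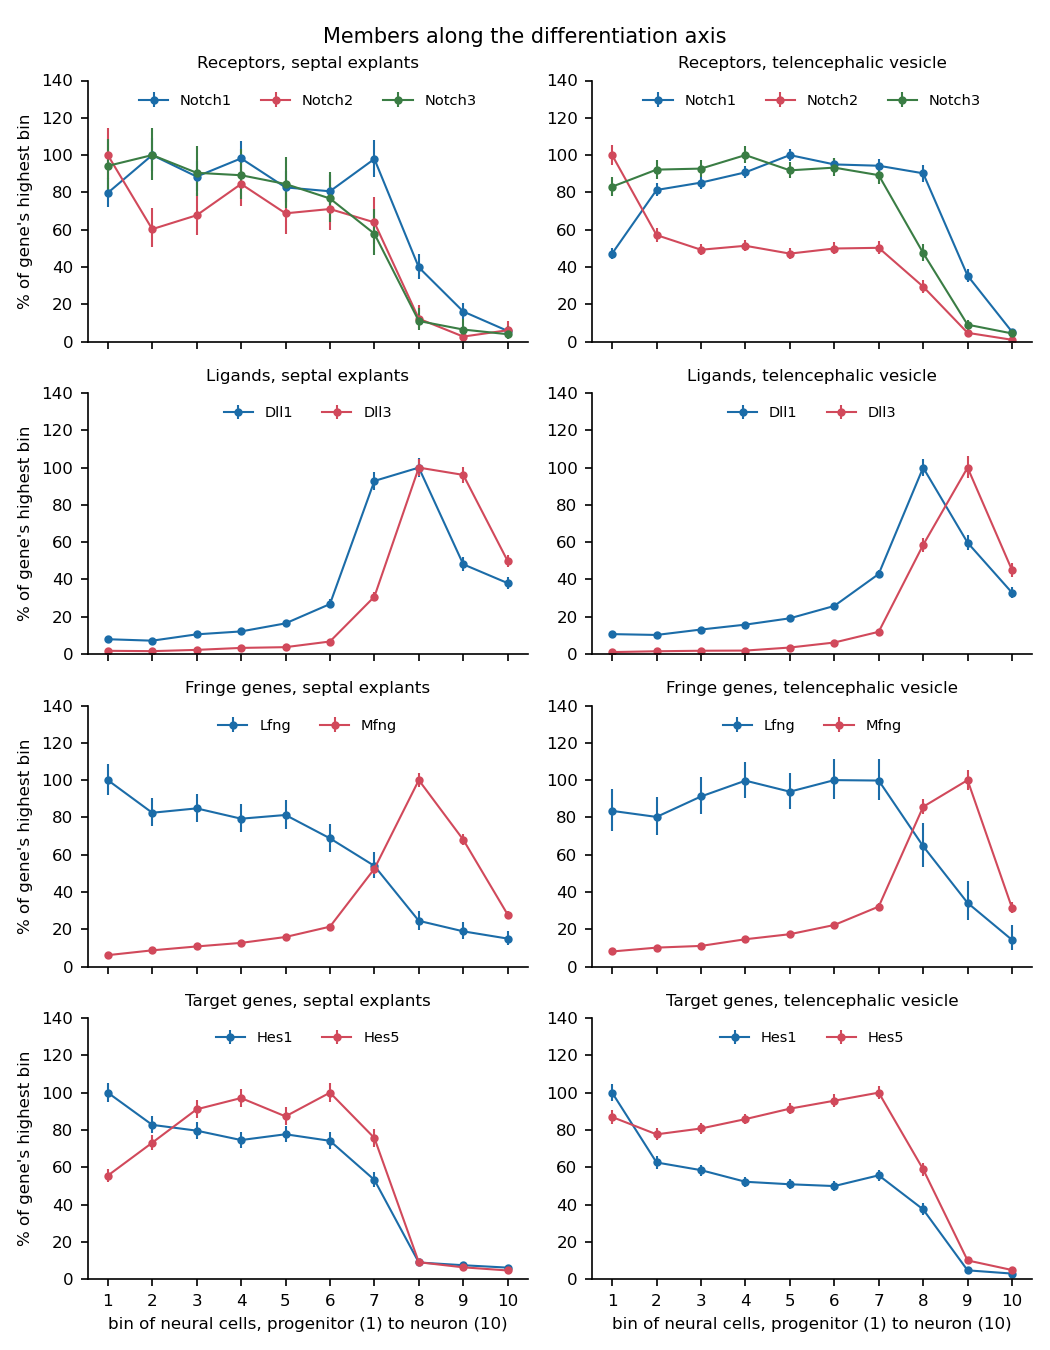
Levels of Notch pathway genes along the axis of differentiation in each library, with 10 bins of equal cell number from the AP end (bin 1) to the neuronal end (bin 10) on the x axis and the level as a percentage of the highest bin of that gene on the y axis. Lines join the bins and bars are 95% Poisson intervals. Dll1 is highest in bin 8 in both libraries, while Notch1 keeps most of its level to bin 7 (septal explants) or 8 (vesicle) and is low in bins 9 and 10.

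Jag1 did not follow Dll1. Septal Jag1 was sparse, at 4.94 CPM in APs (4.33 to 5.62, 234 UMIs), 3.65 in BPs (17 UMIs), 2.54 in newborn neurons (19 UMIs) and 4.68 in neurons (48 UMIs), with the interval of newborn neurons (1.53 to 3.97) below that of APs and all others overlapping. Vesicle Jag1 was 17.5 CPM in APs (16.8 to 18.3), 13.1 in BPs (10.7 to 16.0), 10.9 in newborn neurons (8.16 to 14.2) and 7.13 in neurons (5.61 to 8.93). The BP over AP ratio of Jag1 was 0.738 in the septal explants (0.423 to 1.21) and 0.749 in the vesicle (0.608 to 0.915). Jag2 was near the detection limit in the septal explants, with 46 UMIs in all kept cells and none in 377 BPs, where the floor of 3 counts is 0.796% of cells. In the vesicle it was found mainly at the neuronal end, at 1.41 CPM in APs, 3.25 in BPs (25 UMIs), 11.1 in newborn neurons and 10.4 in neurons.

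The receptors divided into 2 patterns. Notch1 was held through the BP step, at 51.4 CPM in septal APs (49.4 to 53.5) and 59.6 in BPs (52.8 to 67.1), before 16.3 in newborn neurons and 6.05 in neurons. Vesicle Notch1 stood at 132, 170.1, 57.1 and 19.2 CPM in the same classes. Its BP over AP ratio was 1.16 (1.02 to 1.31) in the septal explants and 1.29 (1.21 to 1.36) in the vesicle, and 0.973 and 1.01 with clusters.

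Notch2 and Notch3 were already lower in BPs. Septal Notch2 was 18.6 CPM in APs, 13.5 in BPs and 1.21 in newborn neurons, and septal Notch3 was 20.7, 9.22 and 1.47. Vesicle Notch2 was 54.3, 22.6 and 3.62 CPM and vesicle Notch3 76.9, 32.0 and 6.84. The BP over AP ratio of Notch3 was 0.445 (0.320 to 0.604) in the septal explants and 0.416 (0.365 to 0.473) in the vesicle. For Notch2 it was 0.725 (0.552 to 0.936) and 0.417 (0.357 to 0.485), so its size depended on the library, and it was 0.490 in septal clusters. The ratios of neurons over BPs were 0.101 for both Notch1 and Notch2 in the septal explants, and 0.113 and 0.101 in the vesicle.

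The Fringe genes also parted. Lfng was an AP gene in the septal explants, at 54.4 CPM in APs (52.3 to 56.6), 30.2 in BPs (25.5 to 35.7), 15.3 in newborn neurons and 10.2 in neurons. Vesicle Lfng was 16.5, 13.5, 6.84 and 2.95 CPM, and its BP over AP ratio was 0.819 (0.666 to 0.998) against 0.556 (0.466 to 0.659) in the septal explants. Mfng, by contrast, was higher at the BP and newborn neuron steps, with 47.7, 377, 457 and 147 CPM in septal APs, BPs, newborn neurons and neurons and 28.7, 199.7, 238 and 77.6 in the vesicle. BPs held 7.90 times the AP level of Mfng in the septal explants (7.42 to 8.41) and 6.97 times in the vesicle (6.56 to 7.40).

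Counted by a 2-fold rule over genes that reached 50 UMIs in both classes together, 3 of 8 tested members (Dll1, Dll3 and Mfng) were higher in septal BPs than in APs, beside 3.87% of all 12120 genes, and 1 (Notch3) was lower, beside 5.91%. In the vesicle 4 of 9 were higher (the same 3 genes and Jag2), beside 4.94% of 15532 genes, and 2 (Notch2 and Notch3) were lower, beside 9.11%. The vesicle ratio of Jag2, 2.31, was 1.13 with clusters and no longer met the rule. The median log2 ratio of the members was -0.11 in the septal explants and 0.36 in the vesicle, and that of all genes -0.09 and -0.12, so the members did not move together.

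From BPs to neurons the members moved mostly one way. By the same rule 6 members, the 3 receptors with Dll1, Lfng and Mfng, were lower in neurons in each library, beside 9.43% of septal and 12.4% of vesicle genes, while 0 of 8 septal and 1 of 9 vesicle members (Jag2, 3.18-fold) were higher, beside 17.3% and 14.5%. The median log2 ratio of the members was -1.90 and -2.10, against 0.13 and -0.01 over all genes. With clusters the septal count of lower members was 3 (Notch1, Notch2 and Dll1). Newborn neurons were compared with BPs after the levels were seen. There 4 of 7 septal and 4 of 9 vesicle members were at least 2-fold lower, beside 5.0% and 6.73% of genes. In each library these were the 3 receptors and Dll1. Dll3 was the only septal member at least 2-fold higher there, beside 8.20% of genes, and Jag2 (3.40-fold, 2.08 to 5.69) the only vesicle member, beside 6.56%. With clusters these counts of lower members were 1 and 0. The share of all genes with clusters is not given, so the cluster counts in this paragraph show only how the calls moved. In vesicle clusters the ratios were 0.955 for Notch1 (0.869 to 1.05), 0.875 for Notch2 (0.657 to 1.17) and 1.19 for Notch3 (0.947 to 1.49), so the lower receptor levels of newborn neurons rested on the gates there, and in septal clusters they were 0.384, 0.229 and 0.318, the last pair on fewer than 50 UMIs in all.

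**Figure D2:**
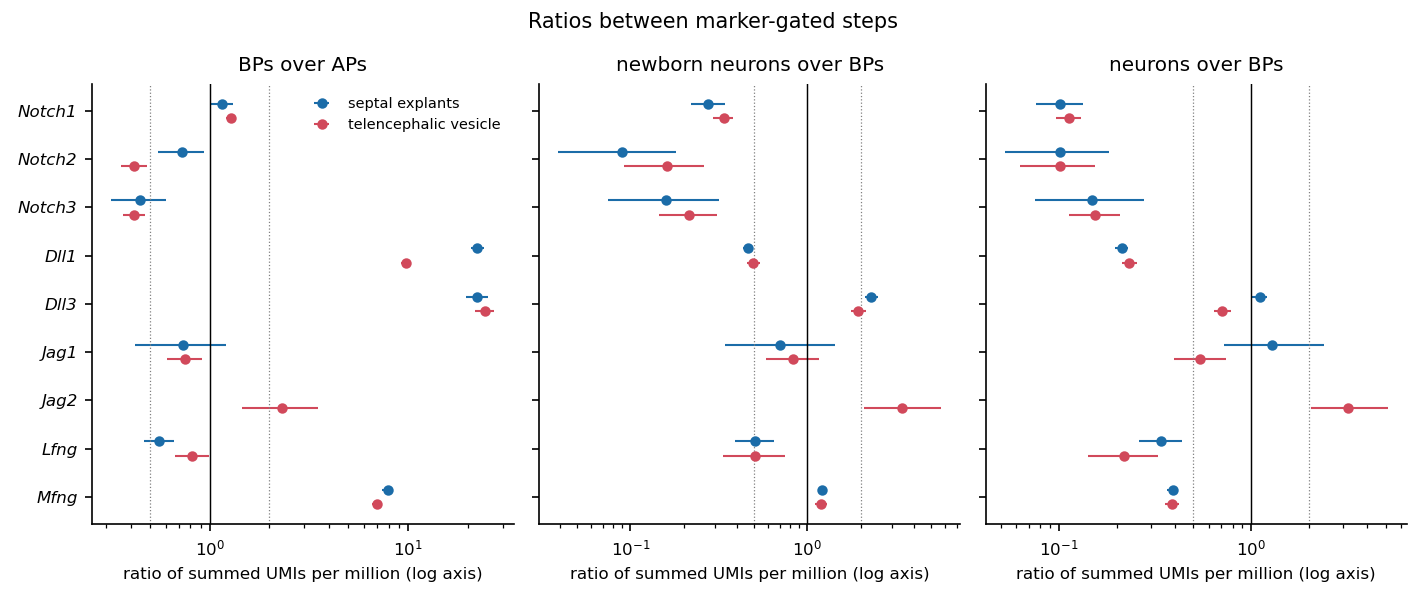
Ratios of CPM between gated steps for the 9 genes, on a log x axis, in the septal explants (blue) and the telencephalic vesicle (red). Points are ratios, bars 95% counting intervals and dotted lines 2-fold, and Jag2 is shown for the vesicle only. Dll1, Dll3 and Mfng lie far to the right for BPs over APs, and the 3 receptors lie to the left in both comparisons with BPs.

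Free RNA in droplets can give UMIs to cells that do not express a gene, so red blood cells served as a reference. Vesicle erythroid cells (392 cells, median 5413 UMIs) held 0.0153 Dll1 UMIs per cell, against 0.522 in APs and 2.61 in BPs. They held 0.0102 Dll3 UMIs per cell, against 0.0812 in APs. Vesicle APs were deeper, with a median of 11082 UMIs. After thinning to 3500 UMIs, Dll1 was 2.44 CPM in erythroid cells (0.502 to 7.12) and 22.0 in APs (20.1 to 24.1). Thinned Dll3 was 0.812 CPM (0.0206 to 4.52) and 3.38 (2.66 to 4.25), so the Dll3 intervals overlapped. Notch1 stood at 0.0281 UMIs per erythroid cell against 2.60 per AP, and Jag1 was in 0 of 392 erythroid cells, where the floor of 3 counts is 0.765% of cells. The septal library gave a poorer reference, with 26 erythroid cells at a median of 29046 UMIs, of which 3 carried all 9 Dll1 UMIs and 3 all 15 Dll3 UMIs. These make 0.346 and 0.577 UMIs per erythroid cell, against 0.304 and 0.116 per septal AP. In CPM, erythroid cells held 12.3 of Dll1 (5.65 to 23.4) and 20.6 of Dll3 (11.52 to 33.9), so the low levels of septal APs, 18.9 and 7.24, were not above that reference beyond counting error. Mfng, at 32.9 CPM in erythroid cells (21.1 to 49.0), was in the same position by CPM. After thinning, a Mfng UMI was found in 28.7% of septal APs (27.1 to 30.5) and 7.69% of erythroid cells (0.946 to 25.1). The erythroid CPM intervals take UMIs as independent and do not cover their clumping in few cells. Septal BPs held more, at 5.23 Dll1, 1.98 Dll3 and 4.66 Mfng UMIs per cell.

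Of the other pathway genes, the targets and the proneural list come first, at the BP step. Hes1, a target that represses proneural genes, was 152 CPM in septal APs and 44.6 in BPs (ratio 0.294, 0.255 to 0.337) and 78.4 and 25.9 in the vesicle (0.330, 0.286 to 0.380). Hes5, its close relative, gave ratios of 0.461 (0.412 to 0.514) and 0.585 (0.542 to 0.630). Of 5 tested targets, 3 were at least 2-fold lower in BPs in each library, beside 5.91% of septal and 9.11% of vesicle genes. Hes1 and Hey2 were lower in both, with Hes5 in the septal explants and Hey1 (0.498) in the vesicle. Hey2 rested on 1 and 2 UMIs in BPs. Along the axis Hes5 was 139.6 CPM in septal bin 7, where Dll1 was already 227, and 16.7 in bin 8.

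Of the proneural list, Neurog1, Neurog2 and Hes6 were at least 2-fold higher in BPs in both libraries. Over all genes this share was 3.87% in the septal explants and 4.94% in the vesicle. Neurog2, a driver of glutamatergic neurogenesis, was 16.4-fold higher in septal and 11.46-fold in vesicle BPs, and Hes6, which antagonises Hes1, 7.51-fold and 8.22-fold. Among 16 genes of receptor processing, 1 was higher in each library, a count near these shares and no result about the list. None was lower, beside 5.91% and 9.11% of genes. The 1 higher gene was Numbl (5.77-fold and 4.45-fold), a relative of the Notch inhibitor Numb. Numb itself gave ratios of 0.943 (0.626 to 1.37) and 1.02 (0.948 to 1.10). None of 6 nuclear genes met the rule, a count near the same shares. Rbpj gave 1.35 (1.15 to 1.59) and 1.57 (1.477 to 1.67). Of the signal-sending list, 6 septal and 7 vesicle genes were tested, beside the same shares. Dlk1 and Dner, non-canonical ligands, were higher in BPs in both libraries (2.67-fold and 2.60-fold, and 4.72-fold and 3.40-fold). Notch4 was lower in the septal explants (0.471), and no gene of this list was lower in the vesicle. From BPs to neurons 3 of 4 tested targets (Hes1, Hes5 and Nrarp) were at least 2-fold lower in each library, as were Neurog1, Neurog2 and Hes6. Over all genes this share was 9.43% in the septal explants and 12.4% in the vesicle.

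Within septal APs, Dll1 was more unevenly spread than Notch1. Over cells thinned to equal depth, the variance of septal Dll1 was 1.46 times its mean, against 1.08 for Notch1, 1.45 for Notch2 and 3.15 for Hes5. The vesicle values lay closer together, at 1.24 for Dll1, 1.16 for Notch1 and 1.13 for Notch2. APs with at least 2 Dll1 UMIs after thinning numbered 70 of 2770 in the septal explants and 54 of 6250 in the vesicle. Septal Dll3 stood at 28.6 CPM in these Dll1-high APs and 6.39 in those without a Dll1 UMI (4.47-fold, 2.48 to 7.55). Septal Mfng stood at 119.6 and 43.2 (2.77-fold, 2.12 to 3.55). Neither Dll3 level was above the septal erythroid reference given earlier beyond counting error. In the vesicle Mfng was 2.64-fold higher and Dll3 rested on 2 UMIs. These were 2 of 7 tested members in each library, beside 2.56% and 6.07% of genes, and 1 was lower in each, beside 7.74% and 17.5%, Jag1 on 1 septal UMI and Notch2 on 4 vesicle UMIs. Notch1 differed by less than counting error, with ratios of 0.984 (0.651 to 1.43) and 1.06 (0.679 to 1.58). Dll1-high APs also lay further along the axis, with a median of -1.91 against -2.32 in the septal explants and -2.19 against -2.58 in the vesicle, and among APs under -2 the Dll3 ratio was 4.65 on 6 UMIs in the septal explants and the Mfng ratio 2.07 and 3.14.

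Dll1 and Dll3 were also found together more often in APs. At equal depth, 14.5% of septal APs with a Dll1 UMI held Dll3 (10.98 to 18.7) against 4.70% of those without (3.89 to 5.62), and in the vesicle 2.86% (1.49 to 4.95) against 1.06% (0.816 to 1.36). In BPs the shares were 59.0% and 56.8% in the septal explants and 29.7% and 33.7% in the vesicle, within counting error of each other. As noted above, UMIs of each gene were found in 3 of 26 septal erythroid cells. The parts of free RNA, doublets and axis position in the septal shares were not tested.

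Cell cycle phase split APs by S-phase and G2/M genes. Dll1 was 32.6 CPM in septal APs low in both gene sets, 15.8 in G2/M-high and 16.0 in S-high APs, and 32.4, 21.2 and 19.0 in the vesicle. Hes1 was also highest in APs low in both sets, at 205 CPM against 149 and 142 in the septal explants and 102 against 74.4 and 82.1 in the vesicle. Notch1 ran the other way in the vesicle, at 106 CPM in APs low in both sets, 139.5 in G2/M-high and 124 in S-high APs. Septal Notch1 was 45.5 CPM (40.2 to 51.3), 56.1 (52.2 to 60.3) and 46.6 (42.7 to 50.7) in the same order, so only G2/M-high APs stood above those low in both sets. Notch2 was highest in vesicle APs low in both sets, at 72.0 CPM against 52.1 in G2/M-high and 42.9 in S-high APs. The septal values were 25.4 (21.5 to 29.8), 19.9 (17.5 to 22.4) and 15.4 (13.2 to 17.9). High APs were those from the 75th percentile of a gene set and low APs those below both medians. The classes thus rest on RNA abundance and not on division. The part of their regional make-up in these values was not tested.

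The AP levels of Notch1 and Notch2 differed between regions of the telencephalon. APs were further gated as hem-like (Wnt and Rspo genes of the cortical hem, 219 septal and 1001 vesicle cells), septal FGF-like (Fgf8, Fgf17 and Fgf18, 805 and 396), pallial (1078 and 1335), LGE-like (Gsx2, 188 and 309) and MGE-like (Nkx2-1, 171 and 1054), where LGE and MGE are the lateral and medial ganglionic eminences of the subpallium. Septal Notch1 was 28.5 CPM in hem-like APs (23.5 to 34.3), 41.5 in FGF-like, 54.4 in pallial, 70.7 in MGE-like (60.7 to 81.9) and 79.6 in LGE-like APs (70.2 to 90.0), of which only the last neighbours overlapped in their intervals. Vesicle Notch1 kept this order, at 63.2, 95.6, 128, 180.3 and 191 CPM.

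Notch2 ran the opposite way at the hem. It was 34.6 CPM in septal hem-like APs (29.1 to 41.0), 23.3 in FGF-like, 18.0 in MGE-like, 15.6 in pallial and 11.51 in LGE-like APs, and 113, 62.3, 48.9, 41.2 and 37.9 in the vesicle. Compared with LGE-like and MGE-like APs together, a comparison added after the levels were seen, hem-like APs held 0.377 times the Notch1 (0.303 to 0.465) and 2.42 times the Notch2 (1.82 to 3.22) in the septal explants. The vesicle ratios were 0.344 (0.324 to 0.365) and 2.49 (2.33 to 2.66). Notch3 did not share in this, with ratios of 1.15 (0.871 to 1.51) and 0.867 (0.812 to 0.924). Over all the alternatives run, the hem ratio stayed between 0.278 and 0.394 for Notch1 and between 2.42 and 2.77 for Notch2.

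Of 7 septal and 9 vesicle members tested, 1 in each (Notch2) was at least 2-fold higher in hem-like APs, beside 4.56% and 7.24% of genes. Lower were 1 septal (Notch1) and 2 vesicle members (Notch1 and Dll3), beside 2.83% and 5.38%, with a vesicle Dll3 ratio of 0.609 in clusters. Counts this small are no result about the members as a set. Hes1 was higher at the hem as well, 2.31-fold (2.06 to 2.60) and 2.75-fold (2.58 to 2.93), and Hes5 lower, at 0.674 and 0.739. Hem-like APs also lay nearer the AP end of the axis, with a median of -2.81 against -2.08 in the septal explants and -3.29 against -2.37 in the vesicle. Vesicle bin 1, the AP end, held 73.7 CPM of Notch1 and 95.5 of Notch2 against 127 and 54.5 in bin 2, and the part of the axis in the regional ratios was not tested.

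**Figure D3:**
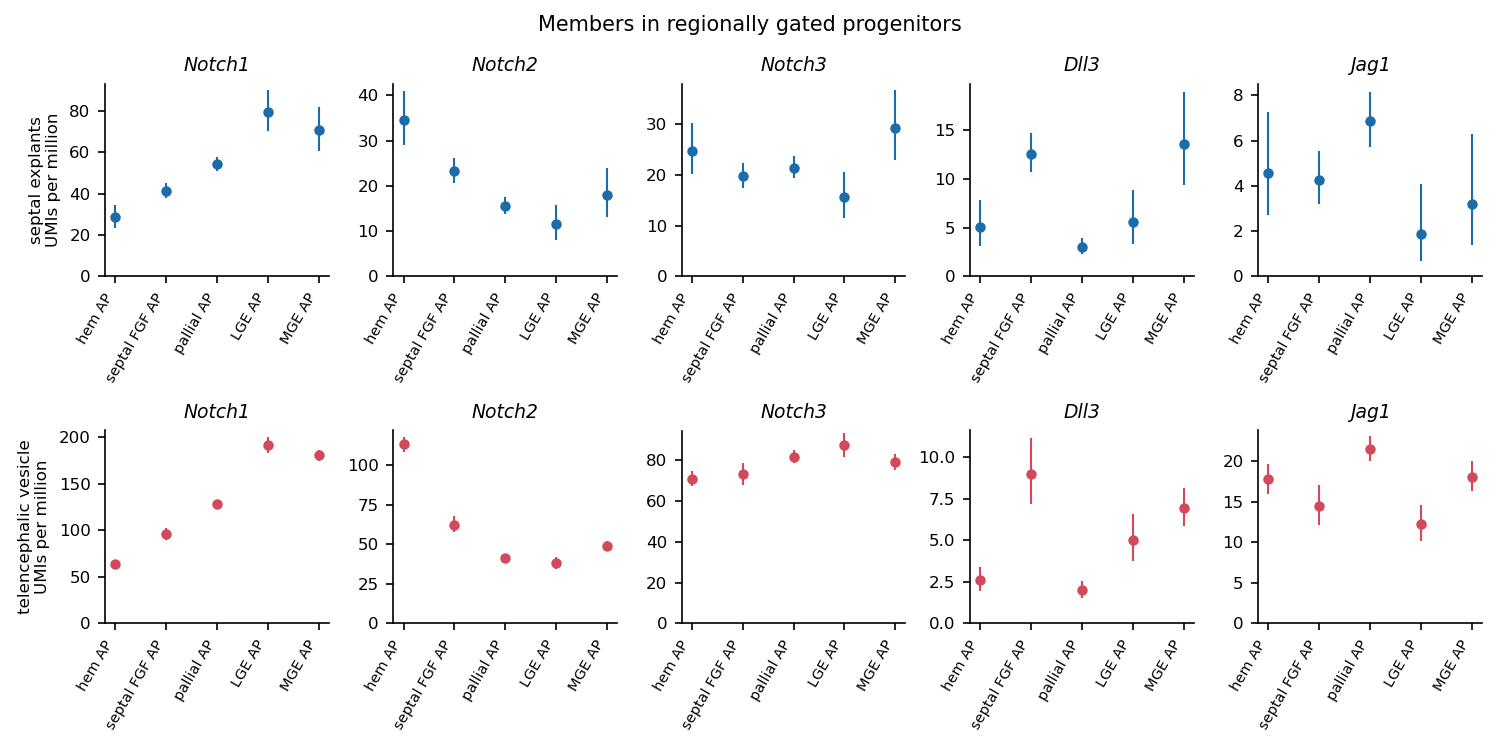
Levels of Notch1, Notch2, Notch3, Dll3 and Jag1 in APs of 5 gated regions (x axis), with the level in CPM on the y axis, one column per gene and one row per library (septal explants above, vesicle below). Points are class values and bars 95% Poisson intervals. Notch1 is lowest and Notch2 highest in hem-like APs in both libraries.

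Pallial and subpallial APs differed most in Dll3. Pallial APs held 3.04 CPM of Dll3 against 9.09 in subpallial APs of the septal explants (0.334, 0.225 to 0.498) and 1.99 against 6.31 in the vesicle (0.315, 0.235 to 0.418), where the ratio was 0.714 with clusters. FGF-like APs stood with the MGE, at 12.6 and 13.6 CPM in the septal explants and 9.01 and 6.93 in the vesicle. Jag1 was higher in septal pallial APs, at 6.84 against 2.45 CPM (2.80-fold, 1.61 to 5.26), a ratio that was 1.19 with clusters, and vesicle Jag1 gave 1.33 (1.19 to 1.49). Notch1 was lower in pallial APs, at 0.719 (0.642 to 0.806) and 0.694 (0.667 to 0.722), and so was Mfng, at 0.507 (0.446 to 0.577) and 0.668 (0.611 to 0.731). By the 2-fold rule, 1 of 8 septal members was higher (Jag1, beside 2.31% of genes) and 1 lower (Dll3, beside 2.48%), and 0 of 9 vesicle members were higher (2.21%) and 1 lower (Dll3, 3.62%). Hes5 was lower in pallial APs, at 0.505 and 0.522, and Hes1 higher, at 1.72 and 1.57. Pallial APs also lay nearer the AP end of the axis than subpallial APs. The medians were -2.49 against -2.08 in the septal explants and -2.57 against -2.37 in the vesicle, and the part of the axis was not tested. Septal Dll3 in the AP classes named here was not above the erythroid reference given earlier.

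In BPs the regional difference of Dll3 was smaller. Eomes-positive pallial BPs held 111 CPM of Dll3 against 237 in subpallial BPs of the septal explants (0.467, 0.381 to 0.571) and 80.5 against 135 in the vesicle (0.594, 0.497 to 0.709). Dll1 differed little, at 1.17 (1.04 to 1.31) and 0.926 (0.831 to 1.03), and Mfng was higher in pallial BPs, at 1.37 (1.21 to 1.55) and 1.34 (1.19 to 1.51). Dll3 was thus the 1 septal member of 5 tested that met the 2-fold rule downwards, beside 2.45% of genes, and 0 of 8 did in the vesicle, beside 2.88%. With stricter gates the septal ratio was 0.503 and with clusters 0.506, both short of the rule. None was higher, beside 2.84% and 4.18%. Pallial BPs lay further along the axis, at 0.47 against -0.19 and 0.22 against -0.55.

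Ligand levels differed between neuronal classes, in a comparison added after the levels were seen. Vesicle glutamatergic neurons (485 cells) held 13.2 CPM of Jag1 (9.92 to 17.3) and GABAergic neurons (670 cells) 2.36 (1.22 to 4.12), a ratio of 0.178 (0.0867 to 0.338), and the septal classes held 34 and 2 Jag1 UMIs. Jag2 was 13.2 and 5.31 CPM in the same vesicle classes (0.401, 0.242 to 0.649). Cajal-Retzius-like neurons, early neurons that express Reln and Trp73, held 35.9 CPM of Jag2 in the vesicle (21.3 to 56.8, 18 UMIs in 61 cells) and 3.21 in the septal explants (5 UMIs in 118 cells). Dll3 was lower in GABAergic neurons, at 0.715 (0.624 to 0.817) and 0.510 (0.432 to 0.601).

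Notch1 was higher in vesicle GABAergic neurons at 26.0 CPM against 10.7 (2.42-fold, 1.70 to 3.49), with 17 and 26 UMIs in the septal classes (2.20, 1.12 to 4.21). Lfng was 4.23 CPM in septal GABAergic and 13.0 in glutamatergic neurons (0.324, 0.136 to 0.670). By the 2-fold rule Lfng was the 1 lower septal member of 4 tested, beside 6.39% of genes, and 0 were higher, beside 2.69%. In the vesicle 1 of 6 was higher (Notch1, beside 4.36%) and 2 were lower (Jag1 and Jag2, beside 4.38%). Without the filters on cells the vesicle Notch1 ratio was 1.73, and after thinning 1.97, both under the rule. GABAergic neurons lay less far along the axis than glutamatergic neurons. The medians were 3.09 against 3.66 in the septal explants and 2.93 against 3.60 in the vesicle. The part of axis position in the ratios between neuronal classes was not tested.

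Vessel cells of the vesicle carried Jagged ligands and receptors. Endothelial cells (24 cells) held 141 CPM of Notch1 (116 to 169), 63.8 of Jag1 (47.6 to 83.6) and 33.1 of Jag2 (21.8 to 48.2), against 16.4 CPM of Jag1 and 2.46 of Jag2 over all kept cells. The endothelial Notch1 interval included the vesicle AP level given earlier. Pericytes (74 cells) held 60.8 CPM of Notch3 (50.9 to 72.1) and 38.7 of Jag1 (30.9 to 47.9). After thinning, pericyte Notch3 was 38.6 CPM (18.5 to 71.0), against 66.8 in APs and 50.9 in mesenchymal cells. Endothelial cells also held 83.4 CPM of Sox2 and a median of 32750 UMIs, and the part of doublets or free RNA in these values was not tested. The septal library held 0 endothelial and 5 pericyte cells.

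**Figure D4:**
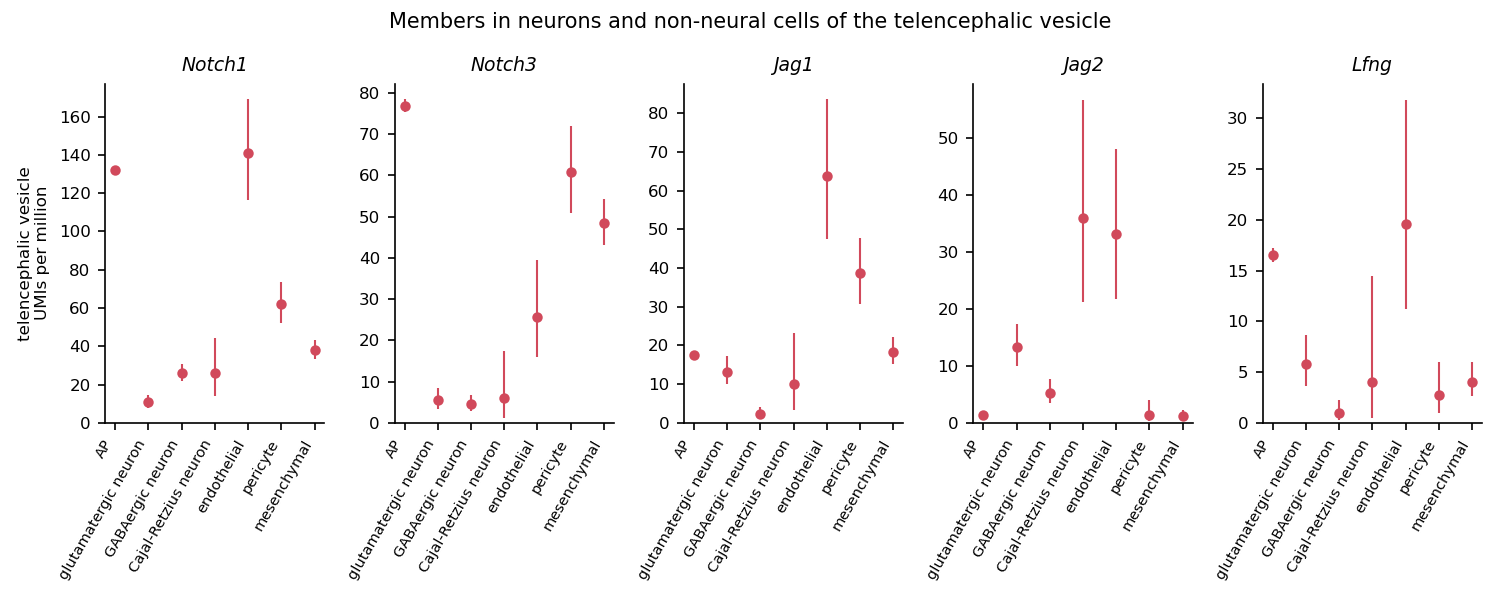
Levels of Notch1, Notch3, Jag1, Jag2 and Lfng in APs, neuronal classes and non-neural classes of the telencephalic vesicle (x axis), in CPM on the y axis, with points for class values and bars for 95% Poisson intervals. Jag1 is lower in GABAergic than in glutamatergic neurons, and endothelial cells hold 63.8 CPM of Jag1.

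The study centres on Dbx1 and the adhesion protein Pcdh8. It reports lower Jag1 and altered Delta1 (Dll1) protein after ectopic Pcdh8 expression, and a rescue by added Jag1. Here the members' RNA was compared, in embryos without ectopic expression, between cells with and without a UMI of either gene. These values do not test the study's result. Dll3 was higher in Dbx1-positive APs, at 18.4 against 6.42 CPM in the septal explants (2.87-fold, 2.13 to 3.80, 186 positive cells) and 7.26 against 3.88 in the vesicle (1.87-fold, 1.43 to 2.42, 272 cells). Septal Jag1 was lower there on 8 UMIs (0.479, 0.204 to 0.959), while vesicle Jag1 gave 1.18 (1.01 to 1.37). Dll1 gave 1.34 (1.06 to 1.69) and 1.11 (0.974 to 1.25). Neither septal Dll3 level in these APs was above the erythroid reference given earlier. In BPs the Dll3 ratio went opposite ways, at 1.79 (1.479 to 2.15, 45 positive cells) and 0.556 (0.431 to 0.708, 101 cells). In newborn neurons the Dll1 level of Dbx1-positive cells was 0.515 times that of negative cells in the septal explants (0.423 to 0.622). In the vesicle it was 0.644 times (0.405 to 0.975), and with clusters the 2 ratios were 0.739 and 0.843. With at least 2 UMIs for a positive cell, the septal ratio was 0.331 (0.240 to 0.445). Septal Dbx1-positive cells lay further along the axis, at a median of -1.94 against -2.32 in APs and 2.58 against 2.23 in newborn neurons. In BPs the axis medians also went opposite ways, at 0.12 in positive and -0.21 in negative septal cells and -0.58 and -0.33 in the vesicle, and the part of axis position in these ratios was not tested.

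Pcdh8-positive APs differed less. Jag1 gave ratios of 1.24 (0.838 to 1.80) in the septal explants and 0.990 (0.886 to 1.10) in the vesicle, and Dll1 of 1.04 (0.848 to 1.27) and 1.24 (1.14 to 1.35), with a septal Dll1 ratio of 0.803 in clusters. Notch1 was higher, at 1.18 (1.05 to 1.33) and 1.35 (1.30 to 1.40), and Notch2 lower, at 0.699 (0.546 to 0.884) and 0.867 (0.812 to 0.925). With at least 2 UMIs for a positive cell, the septal ratios were 1.46 (1.19 to 1.79) for Notch1 and 0.709 (0.425 to 1.11) for Notch2. Vesicle BPs went another way, since the 36 Pcdh8-positive cells held 2.23 times the Notch2 level of negative cells (1.46 to 3.33, 30 UMIs), 2.08 times that of Notch3 (1.45 to 2.93) and 0.526 times that of Dll3 (0.366 to 0.735), and lay less far along the axis (-0.74 against -0.34). The 31 septal positive BPs gave 0.329 for Notch2 on 2 UMIs (0.0389 to 1.24) and 0.938 for Dll3 (0.714 to 1.21). Positive vesicle APs were deeper, with medians of 17543 against 10716 UMIs for Pcdh8 and 18821 against 10958 for Dbx1. In the paper, APs with Pcdh8 lay in the subpallium, septum and ventral pallium, and those of the lateral and dorsal pallium lacked it. Positive and negative cells of either gene may thus also differ in region. The septal library also pooled E11.5 and E12.5 embryos. The parts of depth, region and stage in these ratios were not tested.

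Reporter RNA separated the septal embryos in part. APs with tdTomato and no YFP UMIs (124 cells, Dbx1Cre lineage at E12.5) held 14.4 CPM of Dll3 (9.67 to 20.7), and APs with at least 3 YFP and no tdTomato UMIs (1745 cells, E11.5) 7.46 (6.50 to 8.52). Neither Dll3 level was above the septal erythroid reference given earlier. Lfng was 64.3 (53.6 to 76.4) and 48.8 CPM (46.3 to 51.4), and the Dll1 intervals overlapped, at 18.9 and 18.8 CPM. Stage, lineage and genotype differ together here and cannot be told apart.

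The genes most like each member in level were sought by Pearson's r of log2(CPM + 1) over classes and bins, 24 points in the septal explants and 28 in the vesicle, which share cells and are not independent. Dll1 was nearest to Gadd45g (r = 0.987), Hes6 (0.958) and Mfng (0.956) in the septal explants and to Btbd17, Hes6 and Miat (0.961, 0.960 and 0.960) in the vesicle, Gadd45g being one of the BP gate genes. Dll3 was nearest to Med27, Srrm4 and Plk3 (0.984, 0.981 and 0.980) and to Plk3, Srrm4os and the gate gene Insm1 (0.980, 0.977 and 0.970). Notch1 was nearest to Rpa3, Ddx19a and the axis gene Dbi (0.982, 0.981 and 0.979) and to Nrf1, Rcc2 and Ccnd1 (0.970, 0.969 and 0.969). Jag1, on far fewer UMIs, was nearest to Pigw, Clstn1 and Necap2 (0.851, 0.850 and 0.819) and to Golim4, Rilpl1 and Foxp1 (0.941, 0.940 and 0.940).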

How the data were processed

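Single-cell RNA was measured with the 10x 3′ assay in 1 library of septal explants (kit v2) and 1 of the telencephalic vesicle (kit v3.1). The authors deposited raw UMI counts per gene and barcode, made with Cell Ranger 2.1.1 and 7.1.0 and the mm10 build per the submitters' processing notes. Whether intronic reads were counted is not given in the sources used here. The libraries held 83103280 and 194821794 UMIs.

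The members and gene lists were chosen with earlier results of these data known, and gate thresholds after marker distributions were seen. Barcodes more than 3 scaled median absolute deviations above or below the median mitochondrial share were removed, then those called as doublets by Scrublet. Neural cells needed 2000 UMIs. Erythroid cells held at least 20% globin UMIs, other non-neural cells at least 10 (endothelial, macrophage), 4 (pericyte) or 6 (mesenchymal) marker UMIs. Regional gates needed at least 3 pallial-list UMIs with at most 1 of the subpallial list, 2 Gsx2 UMIs without Nkx2-1, 2 Nkx2-1 UMIs, 3 Fgf8, Fgf17 and Fgf18 UMIs, or 10 hem-list UMIs per 10000. Neurons were called glutamatergic or GABAergic from 3 list UMIs.

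UMIs were summed per class, with exact Poisson, exact binomial (Clopper-Pearson, shares) or conditional binomial (ratios) 95% intervals. A ratio was called at 2-fold for genes that reached 50 UMIs over both classes. The comparisons of newborn neurons with BPs, hem-like with subpallial APs and GABAergic with glutamatergic neurons were added after class levels were seen. Named genes were the 9 members, pathway genes 2-fold apart between APs and BPs, Hes1, Hes5, Rbpj and the 3 genes most like Notch1, Dll1, Dll3 and Jag1 among genes with at least 200 UMIs. Other genes named (Numb, Nrarp and markers) were chosen after their values were seen. 1 gene of the proneural list is not reported here. The ratio script was tested on simulated data. Alternatives were all deposited barcodes, stricter gates, Leiden clusters (resolution 1.5), a 1.5-fold limit, 5 or 20 bins and an axis without Vim and Dbi. Cells were also thinned to 8000 or 3500 UMIs, which left out 511 and 1145 shallower cells. Further alternatives were APs with an axis value under -2, and at least 2 UMIs for a Dbx1-positive or Pcdh8-positive cell. With the latter, 11 ratios moved beyond their counting interval and 24 did not. The software was scanpy 1.11.5, leidenalg 0.10.2 and igraph 0.11.9 for clusters, pandas 2.3.3, scipy 1.17.1 and numpy 2.4.6 for values and matplotlib 3.10.9 for plots, under Python 3.11.15.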

Additional observations from a re-analysis of the deposited data

How the results depend on the processing

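Of 134 recomputed counts of members, 107 stayed within 1.5 times their value. The share of all genes under each alternative is not given here or above. The recomputed counts therefore show only how the calls moved and are no result about the members. With all deposited barcodes, 2 septal members (Dll3 and Mfng) were lower in pallial than in subpallial APs, and Notch1 alone (1) was higher in septal and 0 in vesicle GABAergic neurons. Stricter gates left 0 septal members lower in pallial BPs. With Leiden clusters the septal counts became 3 lower in BPs than APs (Notch2, Notch3 and Lfng), 3 lower in neurons than BPs, 0 higher and 3 lower in pallial APs (Dll1, Dll3 and Mfng), 0 lower in pallial BPs, 0 higher and 1 lower in newborn neurons (Notch1), and 2 lower at the hem (Notch1 and Dll3). The vesicle counts became 0 lower in pallial APs, 0 lower in newborn neurons and 1 lower at the hem (Notch1). The ratio of Notch3 between newborn neurons and BPs turned in vesicle clusters, to 1.19, and that of Notch2 in Dbx1-positive over negative septal newborn neurons to 0 on 0 UMIs. After thinning, 2 septal members were lower in pallial APs and 0 in GABAergic neurons, while in the vesicle 0 were lower in pallial APs, 0 higher in newborn neurons and 0 higher or lower in GABAergic neurons, since fewer UMIs put members under the minimum or, for Notch1, the ratio was 1.97. With a 1.5-fold limit, 2 septal members were lower in BPs than APs, 3 in pallial APs and 3 at the hem, and in the vesicle 2 were lower in pallial APs, 2 lower in pallial BPs and 2 higher in newborn neurons. With 5 bins, the falls of septal Notch1, septal Notch2 and vesicle Notch2 and the septal Dll3 maximum lay at 90% of cells. Of 508 recomputed ratios, 386 moved by less than their counting interval, as did 11 of 72 shares of cells, which follow depth. Other than as stated, the cause was not tested.

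No paired analysis was possible because each condition has 1 library, and leaving out a replicate could not be run for the same reason. Depth limits Jag2 and septal Jag1 in every class, and Dll3 in vesicle APs.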
